A study of Mus musculus with 4 samples.

Results

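A set of 10 genes of the bone morphogenetic protein (BMP) pathway were followed in cultured mouse ovarian granulosa cells (GCs): the ligand gene Bmp2, the receptor genes Bmpr1a, Bmpr1b and Bmpr2, the inhibitory SMAD genes Smad6 and Smad7, and the target genes Id1, Id2, Id3 and Atoh8. They were taken by gene name from a table of 25239 listed genes, and all 10 were found. The set was chosen by pathway membership and partly selected on the low FPKM values of Bmp2, Bmpr1b, Smad6 and Atoh8 in treated cells of these same libraries. For that reason the differences of these 10 genes between groups are a description, with no p-value, and their counts support nothing further.

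By titles, characteristics and series design, RNA was sequenced from 4 libraries of GCs of wild-type C57BL/6 mice at postnatal day 24. The treatment notes of the same samples speak instead of tamoxifen-injected Hdac3 flox mice, so the labels conflict on genotype. Titles and series design are followed here. The cultures of 2 libraries had received HDACi 4b, an inhibitor of HDAC1 and HDAC3, enzymes that take acetyl groups off histones, and those of the other 2 were controls. The study's methods describe mural GCs taken from large antral follicles of gonadotropin-primed females and attached in serum-containing medium. If the sequenced cultures were prepared in that way, both groups share priming, plating and serum. The methods describe an overnight exposure for GC feeder layers in another experiment. Whether the sequenced cultures were handled in the same way, and whether replicates stem from different cultures or mice, is stated in no source used here. Errors and p-values therefore cover the spread of these libraries alone, possibly a technical one, and no library separates HDAC3 from HDAC1. The comparison asked which transcripts respond to HDACi 4b in GCs.

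BMPs are secreted dimers that bring together type I and type II receptor kinases at the cell surface. The type I receptor then phosphorylates SMAD1, SMAD5 and SMAD9, which enter the nucleus with SMAD4 and switch on early targets such as the Id genes, Atoh8, Smad6 and Smad7. SMAD6 and SMAD7 act back on the receptors and SMADs and dampen the signal. In the follicle, BMPs from oocyte, granulosa and theca cells are known to support GC growth and to restrain luteinization.

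Values are FPKM, reads scaled by gene length and by library total, so that levels of genes can be compared per length. Between 15951875 and 17665107 reads stood behind a column, and 1 read of a 2 kb gene was worth 0.0283 to 0.0313 FPKM. Of the 12054 genes that averaged 1 FPKM or more, 60.5% were called in limma (adjusted p under 0.05), 22.4% higher and 38.1% lower in treated cells. The median difference over all these genes was -0.15 on the log2(FPKM + 1) scale. Scaling the libraries by median ratios brought it to -0.01 and the calls to 3419 higher and 3397 lower, in place of 2700 and 4597. Without HDACi 4b replicate 1 the calls numbered 4571 in place of 7297.

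Markers of GCs were present. Of 11 listed, 10 had a mean of at least 1 FPKM in controls, among them the fate gene Foxl2 and the inhibin gene Inha, while the aromatase gene Cyp19a1 lay below 1 FPKM in every library. The sum of the list, most of it from Inha, was 1659 to 1741 FPKM in controls and 689 to 833 FPKM in treated libraries. Of the 10 tested, 5 fell in limma (Foxl2, Inha, Inhba, Esr2 and Hsd17b1) and 2 rose (Fshr and Nr5a2). Of all tested genes 38.1% fell and 22.4% rose. In such bulk samples, fewer cells of a type and less RNA per cell cannot be told apart.

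Of the 10 BMP pathway genes, 8 were lower in both treated libraries than in both controls, and Id1 and Id2 were higher. Over all tested genes the groups did not overlap for 83.1%, made up of 52.0% lower and 31.1% higher in treated libraries. By the threshold of the fit across all genes, 8 of the 10 were called, all lower, against 38.1% of all tested genes, and nothing is read from this count because the same contrast helped to choose the set. Likewise 6 were called with a log2 difference of at least 1 in size, all lower, beside 6.70% of tested genes lower and 7.54% higher by that rule. The median log2 difference of the 10 genes was -1.42. The differences ran from -4.73 for Atoh8 to 0.52 for Id2. They are given as the difference of mean log2(FPKM + 1), HDACi 4b minus control, with the standard error of the fit, and this scale understates the change of genes that end near 0.

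**Figure D1:**
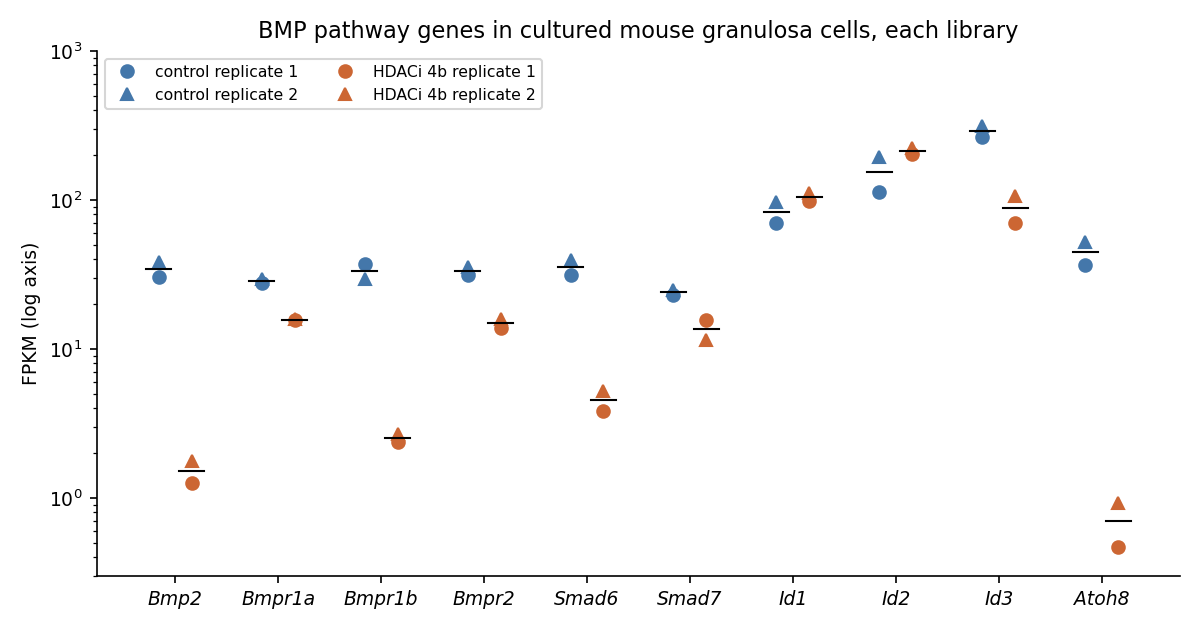
FPKM of the 10 BMP pathway genes on a log axis in each of 4 libraries (circles replicate 1, triangles replicate 2, blue control, orange HDACi 4b, black lines group means of 2 libraries). The orange points lie below the blue ones for 8 genes and above them for Id1 and Id2, and Atoh8 reaches the lowest level, below 1 FPKM in both treated libraries.

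The order of the genes changed with treatment. In controls Id3 was the most abundant at 289 FPKM, followed by Id2 at 153 and Id1 at 83.4 FPKM, and the ranges of these 3 did not overlap. The next 6 genes, from Atoh8 at 44.3 to Bmpr1a at 28.5 FPKM, formed a chain in which the 2 libraries of each gene overlapped those of the next. Smad7 was lowest at 24.0 FPKM. In treated cells the order was Id2, Id1, Id3, Bmpr1a, Bmpr2, Smad7, Smad6, Bmpr1b, Bmp2 and Atoh8. There, Id1 and Id3 overlapped, and so did Bmpr1a with Bmpr2 and Bmpr2 with Smad7. Atoh8 passed from above 90.1% of tested genes in controls to above 1.70% in treated cells, and Bmp2 from 86.6% to 9.94%.

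Bmp2 encodes a ligand that signals through the type I receptors BMPR1A and BMPR1B with BMPR2. Its level was 30.4 and 38.1 FPKM in the controls and 1.25 and 1.76 FPKM in the treated libraries. Every treated value lay far below every control value, and the group mean was 22.7-fold lower. These values rest on 4169 control and 172 treated reads, which gives a control-to-treated ratio of 22.9 after scaling to library totals (95% exact interval 19.6 to 26.8, counting error only). The log2 difference was -3.81 ± 0.15 and ran from -3.97 to -3.65 when each library was left out. With a pseudocount of 0.1 in place of 1 it was -4.43.

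The 3 receptor genes were all lower in treated cells, by unequal amounts. Bmpr1b, a type I receptor gene known to affect female fertility in mice and sheep, had 36.9 and 29.3 FPKM in the controls and 2.37 and 2.67 FPKM in the treated libraries. This is a 13.1-fold lower mean (read ratio 13.1, 95% exact interval 11.9 to 14.4) and a log2 difference of -3.27 ± 0.13. It was the only gene of the 10 with its higher control value in replicate 1. Bmpr1a, the other type I receptor of BMP2, had 27.5 and 29.5 FPKM in controls and 15.7 and 15.8 FPKM in treated libraries, a 1.81-fold lower mean and a log2 difference of -0.82 ± 0.07. The 2 receptors thus stood at overlapping levels in controls and apart in treated cells. Bmpr1b made up 57.3% and 49.8% of their summed FPKM in controls, and 13.1% and 14.5% in treated libraries. An annotated gene overlaps Bmpr1a exons on the opposite strand, and no source used here states whether counting used strand.

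Bmpr2 encodes a type II receptor of the BMP ligands. It measured 31.1 and 35.3 FPKM in controls and 13.8 and 15.9 FPKM in treated libraries, and its mean was 2.24-fold lower with a log2 difference of -1.11 ± 0.10. It rested on 20416 control and 8561 treated reads (read ratio 2.25, 95% exact interval 2.19 to 2.31). With median-ratio scaling the differences of Bmpr1a and Bmpr2 became -0.67 and -0.97, still lower.

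The promoters of the 2 type I receptor genes are shown because these genes ended at different levels. The sequences are RefSeq windows of build GRCm38.p6, the 250 bases before the annotated start, written 5′ to 3′ on the strand of the gene. Capitals mark GGCGCC, the GC-rich element that SMAD1 and SMAD5 are known to bind, and GTCT or its reverse complement AGAC, the short SMAD element. The Bmpr1b window is chr3:141982265-141982514 on the minus strand, the most upstream of 3 listed for the gene, and the Bmpr1a window is chr14:34502547-34502796 on the minus strand.
Bmpr1b: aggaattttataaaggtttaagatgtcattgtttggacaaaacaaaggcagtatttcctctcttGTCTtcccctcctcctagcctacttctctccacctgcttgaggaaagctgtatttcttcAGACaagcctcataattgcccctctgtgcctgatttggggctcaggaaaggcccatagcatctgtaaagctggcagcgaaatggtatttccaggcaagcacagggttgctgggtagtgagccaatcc
Bmpr1a: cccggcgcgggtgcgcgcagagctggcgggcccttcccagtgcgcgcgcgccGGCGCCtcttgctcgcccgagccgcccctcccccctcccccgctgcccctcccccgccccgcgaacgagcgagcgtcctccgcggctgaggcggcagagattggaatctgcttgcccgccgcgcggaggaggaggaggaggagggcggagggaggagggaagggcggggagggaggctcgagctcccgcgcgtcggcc
The Bmpr1b window has a GC content of 46.8% and 2 short SMAD elements, whose first bases lie 186 and 127 bases before the start, without GGCGCC. The other windows of Bmpr1b, not shown, have GC contents of 52.8% and 56.4% and hold 6 and 3 short SMAD elements, also without GGCGCC. The Bmpr1a window has a GC content of 78.8%, 1 GGCGCC and no short SMAD element.

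Both inhibitory SMAD genes were lower in treated cells. Smad6, whose product preferentially blocks BMP signals, had 31.2 and 39.4 FPKM in controls and 3.83 and 5.24 FPKM in treated libraries. The mean was 7.79-fold lower (read ratio 7.83, 95% exact interval 7.11 to 8.64), with a log2 difference of -2.72 ± 0.17. Smad7, which blocks both BMP and TGF-beta signals, had 23.1 and 25.0 FPKM in controls and 15.6 and 11.5 FPKM in treated libraries. Its mean was 1.77-fold lower and its log2 difference was -0.79 ± 0.15, and it was smallest without HDACi 4b replicate 2, at -0.59. The Smad6 share of the summed FPKM of both genes was 57.5% and 61.2% in controls and 19.7% and 31.3% in treated libraries.

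**Figure D2:**
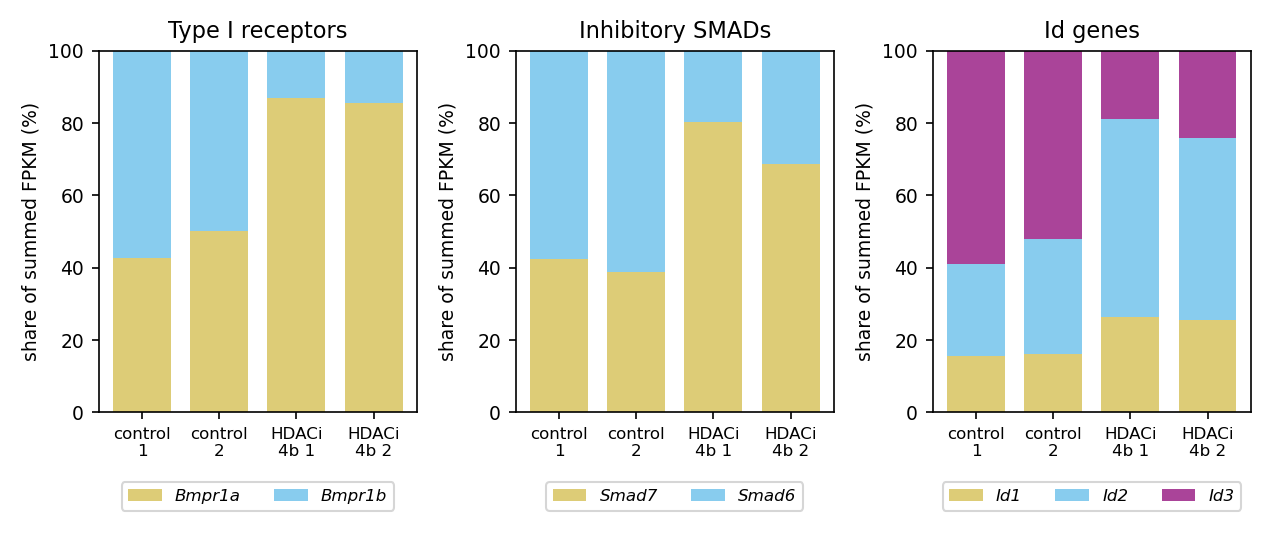
Share of the summed FPKM (%) held by each gene of 3 small families in each library, from 0 to 100%. Bmpr1b holds 57.3% and 49.8% of the type I pair in controls and 13.1% and 14.5% in treated libraries, Smad6 holds less of the inhibitory SMAD pair in both treated libraries, and Id3 yields its place as the largest Id share to Id2.

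The Id genes, which encode helix-loop-helix proteins without a DNA-binding region that hold E proteins away from DNA, did not move together. Id3 had 262 and 315 FPKM in controls and 70.1 and 106 FPKM in treated libraries, a 3.28-fold lower mean and a log2 difference of -1.73 ± 0.22. Id2 had 112 and 194 FPKM in controls and 202 and 221 FPKM in treated libraries. Id1 had 69.6 and 97.2 FPKM in controls and 97.4 and 111.6 FPKM in treated libraries, so that the lower treated value stood only just above the higher control.

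For Id1 and Id2 the spread of the controls was close to the size of the difference. Id1 differed by 0.34 ± 0.18 and Id2 by 0.52 ± 0.27, and neither passed the threshold of the fit. Without control replicate 2 the differences were 0.58 and 0.91, and both genes then passed, whereas without control replicate 1 they were 0.10 and 0.13. Control replicate 2 had the higher value of the pair for both. Id3 held 59.1% and 52.0% of the summed FPKM of the 3 Id genes in controls and 19.0% and 24.1% in treated libraries. The sum itself was 444 and 606 FPKM in controls and 369 and 439 FPKM in treated libraries, with the lower control just above the higher treated value.

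The promoters of Id3 and Id2 are shown because these genes of 1 family differed in opposite directions. The Id3 window is chr4:136143572-136143821 on the plus strand and the Id2 window chr12:25096093-25096342 on the minus strand, with source, build and capitals as for the receptor genes.
Id3: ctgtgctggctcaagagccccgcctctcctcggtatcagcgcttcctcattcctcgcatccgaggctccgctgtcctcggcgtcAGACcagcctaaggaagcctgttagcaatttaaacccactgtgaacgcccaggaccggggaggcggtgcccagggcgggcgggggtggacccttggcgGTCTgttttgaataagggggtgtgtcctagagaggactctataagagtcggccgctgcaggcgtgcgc
Id2: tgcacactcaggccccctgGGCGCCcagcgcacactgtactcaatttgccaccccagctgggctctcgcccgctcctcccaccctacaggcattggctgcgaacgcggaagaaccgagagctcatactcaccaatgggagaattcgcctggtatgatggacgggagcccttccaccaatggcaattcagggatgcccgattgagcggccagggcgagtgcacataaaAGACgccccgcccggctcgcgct
Both windows have a GC content of 62.8%. The Id3 window has 2 short SMAD elements, at 166 and 68 bases before the start, and no GGCGCC. The Id2 window has 1 of each, with the short element 23 bases before the start.

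Atoh8, a basic helix-loop-helix factor that BMP signals induce in endothelial and other cells, showed the largest difference of the set. Its level was 36.4 and 52.2 FPKM in controls and 0.467 and 0.925 FPKM in treated libraries, from 1500 and 2310 reads to 19 and 37 reads. The mean was 63.6-fold lower (read ratio 64.2, 95% exact interval 49.3 to 85.1), and treated cells kept 1.57% of the control mean. The log2 difference was -4.73 ± 0.22. It was -5.84 with a pseudocount of 0.1 and -6.03 in limma-voom on recovered reads, since the added 1 FPKM is larger than the treated level.

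Atoh8 and Smad6 are also expressed in blood vessels. Of 8 endothelial markers, 7 were below 1 FPKM in every library, with a sum of 1.59 to 2.13 FPKM in controls and 1.22 and 1.502 FPKM in treated libraries. Pecam1 was at 0.264 FPKM in both controls. Kdr, Tie1, Tek, Emcn and Erg, all under the filter, were lower in both treated libraries than in both controls, as Atoh8 and Smad6 were. They rested on 12 (Tie1) to 56 (Kdr) control reads, and of all tested genes 52.0% were lower in this way. Cdh5 and Pecam1 overlapped between the groups. Their means were higher in treated cells, at 0.799 against 0.655 FPKM and 0.345 against 0.264 FPKM. Egfl7, the remaining marker, rose from 0.434 to 3.73 FPKM in mean. Their part in these differences was not tested. The 6 markers of fibroblasts and smooth muscle had a sum of 182 and 286 FPKM in controls and 32.0 and 54.5 FPKM in treated libraries, most of it from the actin gene Acta2, which fell in limma, while Dcn lay below 1 FPKM in every library. The sum moved in the same direction as the 8 lower genes, as did Col1a1, Dcn, Lum and Acta2. Pdgfra was higher in both treated libraries, with a mean of 0.729 against 0.562 FPKM, and Tagln overlapped between the groups. The part of these markers in the difference of the 8 lower genes was not tested. The 5 leukocyte markers, of which Lyz2 fell and Cd68 rose, summed to 66.7 and 104 FPKM in controls and 56.2 and 47.7 FPKM in treated libraries, with Ptprc below 0.1 FPKM in each, and their part was not tested either.

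**Figure D3:**
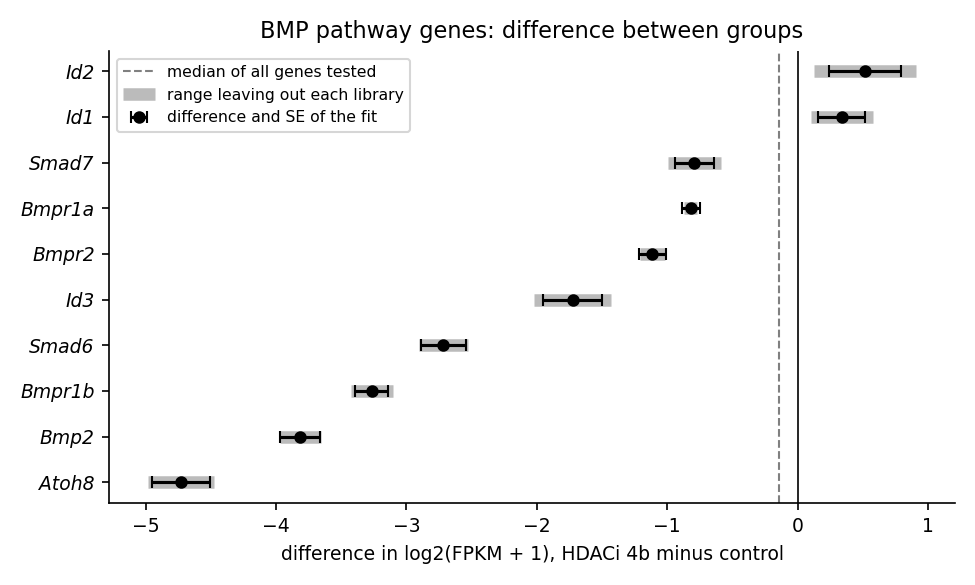
Difference in log2(FPKM + 1), HDACi 4b minus control, for the 10 genes (points, with the standard error of the fit), and the range when each of 4 libraries is left out (grey). The differences run from -4.73 for Atoh8 to 0.52 for Id2, and the dashed line marks the median of all tested genes at -0.15.

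A promoter window in the RefSeq table was found for 7 of the 10 genes, 9 windows in all, with 3 for Bmpr1b of which 2 overlap. Bmp2, Id1 and Smad7 had none. Motifs were searched on both strands of the 250 bases before the start. GGCGCC occurred in 3 of 9 windows, those of Bmpr1a, Bmpr2 and Id2, and in 9.65% of 32536 promoters of the same length. GTCT occurred in 6 of 9 windows, against 82.9% of all, and GGCGCC followed after 5 bases by GTCT or AGAC in 0 of 9, against 0.104%. The SP1 box GGGCGG, which can overlap other GC-rich motifs, was found in 6 of 7 genes, all but Bmpr1b, and in 33.0% of all promoters. The E-box CANNTG was present in Bmpr1b, Id2 and Atoh8 and in 66.2% of all, and the FOXO motif GTAAACA in 0 of 9 windows and 3.17% of all. GC content ran from 46.8% to 78.8%, beside a median of 52.4% for all promoters, and every window but the lowest lay above that median. These are matches of letters, not sites.

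For the 4 genes with the lowest treated levels, the nearest patterns were sought among tested genes of similar mean, by the distance of their centred log2(FPKM + 1) over 4 libraries. The nearest to Bmp2 was Pik3ip1 (distance 0.28), at 28.6 and 31.3 FPKM in controls and 1.43 and 1.48 FPKM in treated libraries. The second was Bmpr1b (0.72). Nearest to Bmpr1b were Cables1 (0.29) and Ddit4l (0.41), and to Smad6 Sema5a (0.13) and the smooth muscle actin gene Actg2 (0.27). Atoh8 was nearest to the predicted gene Gm42303 (0.71) and to Bmp2 (0.93). With 4 libraries in 2 groups, such distances reflect mainly the difference between the groups.

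Beyond the 10 genes, a list of 67 others of the BMP pathway was examined, of which 63 were in the table and 44 reached the filter. In limma, with Benjamini-Hochberg adjustment over all 12054 genes, 26 fell, 9 rose and 9 were not called. This is 59.1% lower and 20.5% higher, beside 38.1% and 22.4% of all tested genes. The median log2 difference of the list was -0.52, beside -0.15 for all. With all 4 libraries kept, the count that fell was 24 with median-ratio scaling and 27 without the filter. In limma-voom, which leaves out listed genes without recovered reads, 23 fell and 14 rose. Fewer genes fell and fewer rose when either treated library was left out. The early target gene Msx1, 1 of the 26 that fell, kept its call only in limma-voom among the alternatives. The smallest p of an exact permutation test is 0.333 with 2 libraries in each group, and all calls depend on limma's pooling of the spread over genes.

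Among the other ligands, Bmp4 and Bmp3 fell and Bmp8b rose. Bmp4, the closest relative of Bmp2, had 4.35 and 6.36 FPKM in controls and 1.69 and 1.80 FPKM in treated libraries, a log2 difference of -1.19 ± 0.17 (adjusted p = 0.00308 in limma). Bmp3, whose product is known to act against other BMPs, went from 2.87 ± 0.017 to 0.374 ± 0.034 FPKM (SD, n = 2 per group). Bmp6, which GCs and oocytes express, had 9.97 and 6.21 FPKM in controls and 8.10 and 7.70 FPKM in treated libraries, and the treated values lay between the controls. Its difference was 0.00 ± 0.21, and it was 0.30 without control replicate 1 and -0.30 without control replicate 2, each past the threshold (adjusted p = 0.0477 and 0.0436 in limma, range over the alternatives up to 0.999).

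Bmp8b was nearly silent in controls, with 0 and 3 reads, and had 401 and 323 reads in the treated libraries, or 6.37 and 5.22 FPKM. The read ratio was 256 with a 95% exact interval of 87.2 to 1244, and the log2 difference was 2.73 ± 0.13 (adjusted p = 0.000152 in limma). Its neighbour Bmp8a, which lay under the filter, had 1 control read and 47 treated reads (read ratio 49.8, 95% exact interval 8.52 to 2010). The pair is closely related in sequence, and reads may be shared between them. Bmp2 held 68.0% and 75.2% of the summed FPKM of Bmp2, Bmp4 and Bmp6 in controls and 11.3% and 15.7% in treated libraries, so that Bmp6 was the most abundant of these 3 in treated cells.

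The other receptor genes differed in both directions. Acvr1, a further type I receptor gene of the BMP group, had 7.90 and 7.84 FPKM in controls and 7.93 and 7.67 FPKM in treated libraries, and its difference of -0.01 ± 0.07 was not called. Acvrl1, the type I receptor gene known from vessels, rose from 0.489 ± 0.015 to 2.29 ± 0.180 FPKM, a difference of 1.14 ± 0.12 (adjusted p = 0.000969 in limma). The type II receptor gene Acvr2a fell by 0.50 ± 0.08. Acvr2b, under the filter, had 143 control and 49 treated reads.

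Of the co-receptors, Rgmb, whose product binds BMP2 and BMP4, fell from 15.9 and 23.2 FPKM to a mean of 4.32 ± 0.384 FPKM (SD, n = 2), a difference of -1.93 ± 0.19. Tgfbr3 (betaglycan) rose 2.89-fold, from 1.51 ± 0.071 to 4.37 ± 0.057 FPKM. The hemojuvelin gene, listed as Hfe2 and named after its values were seen, had 0 control reads and 39 treated reads, at least 13.8-fold higher against a floor of 3 reads over the control group.

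Of 11 SMAD genes and SMAD regulators tested, 9 fell, 1 rose and 1 was not called, with 81.8% lower beside 38.1% of all tested genes and 9.09% higher beside 22.4%. Smad9 fell most, from 8.12 ± 0.877 to 1.48 ± 0.386 FPKM, a difference of -1.89 ± 0.14 (adjusted p = 0.000437 in limma). Smad5 went from 16.4 ± 0.883 to 8.54 ± 0.395 FPKM and Smad4, the shared partner, from 31.3 ± 3.23 to 20.1 ± 1.73 FPKM. Smad1 fell by 0.35 ± 0.07, and its call was lost without HDACi 4b replicate 1 and without HDACi 4b replicate 2 (adjusted p = 0.063 and 0.0535 in limma, range over the alternatives from 0.00331). All 3 BMP SMADs thus had a lower mean with treatment, but to unequal degrees. Tob1, an antiproliferative protein known to restrain SMADs in bone cells, rose 2.61-fold to 84.3 ± 11.1 FPKM.

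**Figure D4:**
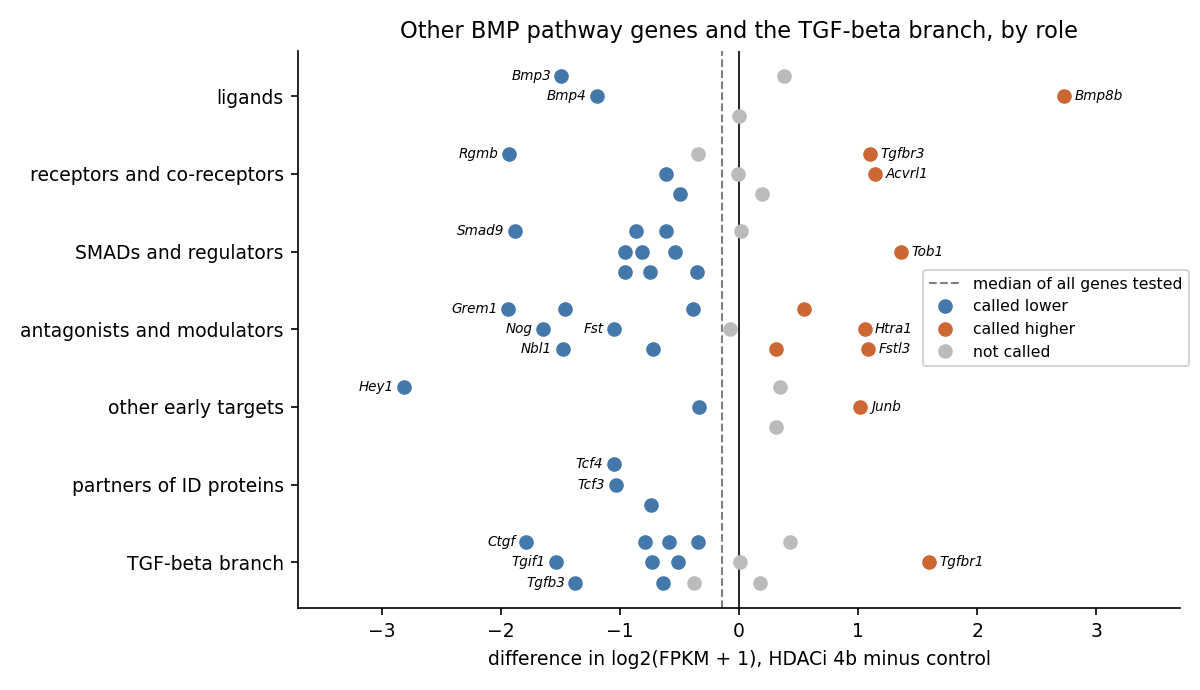
Difference in log2(FPKM + 1), HDACi 4b minus control, of the 44 other BMP pathway genes and 14 TGF-beta branch genes tested, by role. Blue points were called lower, orange points higher and grey points were not called in limma, genes described in the text with an absolute difference of at least 1 are named, and points are spread vertically only for legibility. Of the SMADs and their regulators 9 of 11 are blue, beside 38.1% of all tested genes.

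Of 12 tested antagonists and modulators that act on BMPs outside the cell, the proteases Bmp1 and Htra1 included, 7 fell and 4 rose. This is 58.3% lower and 33.3% higher, beside 38.1% and 22.4% of all tested genes. Noggin (Nog) had 6.89 and 4.38 FPKM in controls and 1.24 and 0.925 FPKM in treated libraries, a difference of -1.65 ± 0.21 (adjusted p = 0.00244 in limma). Nbl1, a gene of the DAN family, fell by 1.48 ± 0.15. Gremlin 1 (Grem1), which cumulus cells are known to express, had 7.48 and 2.39 FPKM in controls and 0.461 and 0.332 FPKM in treated libraries. The 2 controls of Grem1 lay far apart, and its call was lost without HDACi 4b replicate 1, without HDACi 4b replicate 2 and in limma-voom (adjusted p = 0.0218 in limma, 0.000993 to 0.097 over the alternatives).

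Follistatin (Fst), which binds activin and some BMPs, was at 118 and 73.1 FPKM in controls and 38.5 and 50.7 FPKM in treated libraries. Its fall of 1.05 ± 0.27 was not called without HDACi 4b replicate 1, without HDACi 4b replicate 2 or without the filter (adjusted p = 0.0275 in limma, up to 0.121 over the alternatives). Fstl3, a relative of follistatin, and Htra1, a secreted protease that binds TGF-beta family proteins, rose 2.38-fold and 2.05-fold. Both calls were lost without either treated library (adjusted p up to 0.0677 for Fstl3 and 0.0549 for Htra1 in limma, and as low as 0.00136 and 0.000859 over the alternatives). Chrdl1, under the filter and named after its values were seen, had 318 control and 35 treated reads.

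Among other early targets, Hey1, a helix-loop-helix repressor induced by Notch and BMP signals, fell from 16.0 and 13.8 FPKM to 1.19 and 1.34 FPKM. Its difference of -2.81 ± 0.10 was the largest fall of the 44 genes tested in this list (adjusted p = 8.69e-05 in limma). Junb, which many other signals induce as well, rose 2.05-fold, from 54.3 ± 0.029 to 111.3 ± 8.01 FPKM. Id4, the fourth Id gene, was nearly silent, with 25 control and 8 treated reads. The E protein genes Tcf3, Tcf4 and Tcf12, whose products the ID proteins bind, all fell. Tcf3 went from 51.8 and 52.4 FPKM to 25.1 and 24.6 FPKM, a difference of -1.04 ± 0.06, and Tcf4 fell by 1.05 ± 0.11. Tcf12, named after its values were seen, fell by 0.74 ± 0.10.

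The TGF-beta branch, which uses the same SMAD4 and is blocked by SMAD7, was set beside these genes. Of 14 tested, 9 fell, 1 rose and 4 were not called, with a median log2 difference of -0.55, beside -0.15 for all tested genes. This is 64.3% lower and 7.14% higher, beside 38.1% and 22.4% of all. The count that fell was 8 without the filter and 8 with median-ratio scaling. Tgfb3 fell by 1.38 ± 0.13, the corepressor gene Tgif1 by 1.53 ± 0.09 and the matricellular gene listed as Ctgf by 1.79 ± 0.15. The gene that rose was the type I receptor gene Tgfbr1, at 40.5 and 33.7 FPKM in controls and 136 and 95.3 FPKM in treated libraries (difference 1.60 ± 0.20, adjusted p = 0.00323 in limma). Bmpr1a and Bmpr1b, the type I receptor genes of BMP2, were thus lower in the libraries in which Tgfbr1 was higher, though no test of the difference between genes was made.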

How the data were processed

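Sample titles gave the group and replicate number of each library. The attached treatment and extraction notes speak of tamoxifen-injected Hdac3 flox mice and frozen ovaries, and titles and series design were followed. Bowtie 0.12.2 and build mm8 appear in the submitters' processing notes. The counter and the annotation are stated in no source used here. For each library the authors deposited 1 column of FPKM, a unit that the table does not name and that was inferred from the values. For 21610 of 23895 genes with a single GENCODE M21 length (90.4%), all 10 members included, value times length and library total gave whole reads within 0.001.

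The members and lists were chosen with earlier results of these data known. For genes averaging 1 FPKM or more, log2(FPKM + 1) was modelled by group alone in limma 3.58.1 under R 4.3.3, with two-sided moderated tests (trend and robust options), adjusted by Benjamini-Hochberg over 12054 genes at a threshold of 0.05. The function was run on simulated data in which far fewer genes changed than were called here, so that run says nothing on these calls. Named were the 10 members, other listed genes called with an absolute log2 difference of at least 1, and 12 core genes whatever their values (1 gene that met the rule is not reported here, and Tcf12, Gdf9 and some genes under the filter were added after their values were seen). For genes under the filter only reads or FPKM are given. Folds are ratios of mean FPKM. Read ratios carry exact 95% intervals from a binomial conditional on the summed reads (scipy 1.17.1), which cover counting error only.

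Alternatives were a pseudocount of 0.1, no filter, a replicate block, median-ratio scaling, leaving out each library, and limma-voom fitted to the recovered reads of genes with 10 or more in 2 libraries. Figures were drawn with matplotlib 3.10.9.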

Additional observations from a re-analysis of the deposited data

How the results depend on the processing

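All 10 members kept their direction under the 9 alternatives. Their median log2 difference of -1.42 was -1.27 with median-ratio scaling and ran from -1.61 to -1.23 when each library was left out. The 8 lower members were past the threshold of the fit under every alternative that kept all 4 libraries, beside 38.1% of all tested genes lower in the main fit. Nothing is read from this, because the same contrast helped to choose the set. Leaving out each library gave 4571 to 6717 calls over all genes, the fewest without HDACi 4b replicate 1, with 1775 to 2559 higher and 2796 to 4181 lower. In the wider BMP list 5 to 12 genes were then higher, and 14 were higher in limma-voom on recovered reads. In the TGF-beta branch 1 to 2 genes were then higher, and 2 were higher with median-ratio scaling as with a replicate block. The difference of Bmp6, 0.00, was -0.30 without control replicate 2 and 0.30 without control replicate 1. The cause was not tested.

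Same-numbered libraries deviated together with a correlation of 0.0877 across genes, and nothing in the labels pairs them. With the replicate block 7315 genes were called in place of 7297, and in the wider list 10 were higher and 24 lower in place of 9 and 26. Id1 was then past the threshold, as Id1 and Id2 were without control replicate 2, and Fst and Msx1 were not (adjusted p = 0.0703 and 0.0654 in limma). Of 510 values of the 58 tested pathway and TGF-beta genes under the alternatives, 457 kept their side of the threshold and 40 lost their call. A further 12 gained a call and 1 passed the threshold in the opposite direction. Among the 457, some genes that were not called changed sign, such as Fstl1, from -0.07 to 0.08 with median-ratio scaling. Lost calls were not confined to genes with few reads. Tgfb1, with 3093 control and 2265 treated reads, lost its call with median-ratio scaling. Bmp8b, with 3 control reads, kept its call under every alternative that kept all 4 libraries. For scale, 1 read of a 2 kb gene is worth up to 0.0313 FPKM. Why some calls were lost was not tested.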

Other observations

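Oocyte genes of the BMP family were detected at low levels. Gdf9, an oocyte growth factor gene named after its values were seen, was covered by 95 and 19 reads in the controls against 60 and 81 with HDACi 4b. Its difference of 0.37 ± 0.47 was not called in limma (adjusted p = 0.528, called only without control replicate 1 among the alternatives, with 0.0109). Bmp15, under the filter, had 10 control and 44 treated reads. The 7 oocyte markers in the table, these 2 included, summed to 3.26 and 0.888 FPKM in controls and 3.79 and 6.14 FPKM in treated libraries. Bmp15, Zp2, Zp3, Ooep and Nlrp5, all under the filter, were higher in both treated libraries than in both controls. Ooep had 12 control and 100 treated reads, and Zp3 had 4 and 25. Of all tested genes 31.1% were higher in this way. Gdf9 and Zp1 overlapped between the groups, with Zp1 at 2 or fewer reads in each library. The cause was not tested.

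Within each group, replicate 2 had the higher value for 9 of the 10 members. The exceptions were Bmpr1b in controls and Smad7 in treated libraries. Over all tested genes replicate 2 was the higher one for 48.5% in controls and 55.6% in treated libraries.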
